A study of Mus musculus with 18 samples.

Results

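Prss23 is a secreted serine protease, and its transcript was followed here through the 3 major cell types of the mouse glomerulus, with and without the Cd2ap mutation. It was selected on its podocyte signals, since it stood out among the transcripts elevated in mutant podocytes. The deposited table carries Prss23 on 2 of its 28856 transcript clusters, which are sets of probes summarised to 1 value, and both were read in all 18 arrays. They are called by their array identifiers, 10554814 and 10565456. Cells were sorted by FACS from glomeruli of mice 5 weeks of age, using transgenic GFP reporters: Tie2-GFP for endothelial cells, Meis1-GFP for mesangial cells and a further one for podocytes. The mutants were Cd2ap-/- mice of the strain B6.129X1-Cd2ap tm1Shaw/J, and every group also carried its GFP reporter. The 6 groups, with 3 arrays each, were mutant and wild type endothelial, mutant and control mesangial, and mutant and wild type podocyte. The genotype is written +:- in the column names of the mesangial controls, unlike those of the other controls, and they are called control mesangial here. The mutation is present in all cells of the mutants, not only in podocytes, so each comparison holds the effects of the mutation within the cell type and of disease around it together. Whether arrays of a group came from separate animals is given only as biological triplicates. The letters A, B and C name the 3 arrays of a group and carry no order.

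CD2AP is an adapter protein of the podocyte slit diaphragm, and its loss leads to glomerulosclerosis. Podocytes form the outer filtration layer of the capillary, endothelial cells line its inside, and mesangial cells hold the capillary loops together. Prss23 belongs to the chymotrypsin-like S1 serine proteases, enzymes that cut proteins with a histidine, aspartate and serine at the active site. Its closest relative is Prss35. Prss23 has been studied in the ovary, in tumour cells and in the transition of endothelial cells to mesenchymal cells, where it was linked to the transcription factor Snail. Serine proteases outside cells are held in check by serpins and Kunitz-type inhibitors, and some of them signal through the protease-activated receptors.

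Mouse Prss23 lies on chromosome 7 from 89507783 to 89527187 on the minus strand of GRCm38.p6, over 19405 bp, and RefSeq lists 8 transcripts for it. The promoter table holds 7 start sites for the gene. The outermost lies at 89527187, and the other 6 lie between 8983 and 9762 bp downstream of it. The 250 bases before the outermost start and before the next one are shown, because they are the upstream sequences of the separate places from which Prss23 transcripts can begin. Capitals mark matches, on either strand, to CANCTG, a form of the E box that includes the Snail-type CAGGTG, and to TGANTCA, the AP-1 site. The outermost window is chr7:89527188-89527437, minus strand, and the next is chr7:89518205-89518454, minus strand.
Prss23 outermost start: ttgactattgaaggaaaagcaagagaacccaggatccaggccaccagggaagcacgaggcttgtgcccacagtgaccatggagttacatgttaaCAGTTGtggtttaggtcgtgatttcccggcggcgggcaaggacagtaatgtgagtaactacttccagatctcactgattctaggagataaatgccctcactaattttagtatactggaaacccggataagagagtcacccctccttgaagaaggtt
Prss23 next start: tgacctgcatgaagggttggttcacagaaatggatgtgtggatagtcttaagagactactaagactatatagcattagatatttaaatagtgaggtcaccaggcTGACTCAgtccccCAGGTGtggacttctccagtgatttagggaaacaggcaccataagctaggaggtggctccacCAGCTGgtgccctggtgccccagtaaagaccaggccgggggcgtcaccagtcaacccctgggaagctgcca

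The outermost window held 1 match to CANCTG and none to the other motifs searched, and its GC content was 47.6%. The next window held 2 matches to CANCTG, of which 1 was CAGGTG, and 1 match to TGANTCA, with a GC content of 52.0%. Among all 32817 windows of this length in the table, 44.8% held CANCTG, 17.2% held CAGGTG and 6.75% held TGANTCA. The GC box GGGCGG was in neither of these windows but in those of the 4 innermost starts, and was held by 32.7% of all windows. The 3 innermost starts had GC contents from 74.4% to 79.6%. TATAAA and the clock-type E box CACGTG were found before none of the 7 starts, and 12.4% and 6.02% of all windows held them. The files do not tell which of these starts was used in any sample.

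Median signals of the arrays lay between 62.8 and 71.6. Signals are linear RMA values, and their number of 3 arrays per group limits the precision. Cd2ap itself, the mutated gene, was read first. Its signal was 891, 966 and 920 in mutant endothelial arrays A to C against 840, 859 and 757 in wild type ones, and it was not lower there. The mean was 829 in mutant and 1027 in control mesangial arrays, and 1498 in mutant and 1775 in wild type podocyte arrays, and no comparison passed the test (limma adjusted p = 0.336, 0.151 and 0.504 for endothelial, mesangial and podocyte). The position of its probes relative to the mutation is not known here, so directions rest on the labels. The sorted cells carried the markers of their labels. Summed signals of 7 podocyte markers were 10698 to 13370 in podocyte arrays. Those of 7 endothelial markers were 14786 to 17105 in endothelial arrays, and those of 6 mesangial markers were 7441 to 8477 in control and 5341 to 6001 in mutant mesangial arrays. Control mesangial array C stood apart, with a podocyte marker sum of 3536 against 785 and 958 in arrays A and B, and an endothelial marker sum of 7527 against 2244 and 2640, and an erythroid marker sum of 7227 against 559 and 271. The Y-linked gene Ddx3y was above 100 in mutant endothelial arrays A and B, control mesangial arrays B and C, mutant podocyte array B and wild type podocyte array A, so sexes were mixed unevenly over the groups.

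In podocytes, the cell type for which the gene was chosen, Prss23 was low in every wild type array and high in every mutant array. The signals of cluster 10554814 were 114, 164 and 230 in wild type podocyte arrays A to C. They were 1472, 1192 and 1231 in mutant podocyte arrays A to C. The lowest mutant signal lay 5.17-fold above the highest wild type array. The group means were 169 ± 58.4 and 1299 ± 152 (SD, n = 3 each). The log2 difference was 2.99 with a standard error of 0.25, which is 7.95-fold, the largest increase among the 12113 clusters tested, those that reached a signal of 100 in 1 or more of the 6 podocyte arrays. Cluster 10565456 read 67.8, 77.6 and 90.4 in wild type podocytes and 303, 308 and 203 in mutant podocytes. Its log2 difference was 1.77 with a standard error of 0.20, which ranked 8 by increase. Its wild type podocyte signals were all under 100, and with them raised to 100 the mutant arrays were at least 2.67-fold higher. The same separation of genotypes, all mutant arrays on top, held for 6.97% of the clusters tested in podocytes. These podocyte values chose the gene, so no test is given for them. In sorted cells, a change in the number of cells that make a transcript and a change in RNA per cell cannot be told apart.

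**Figure D1:**
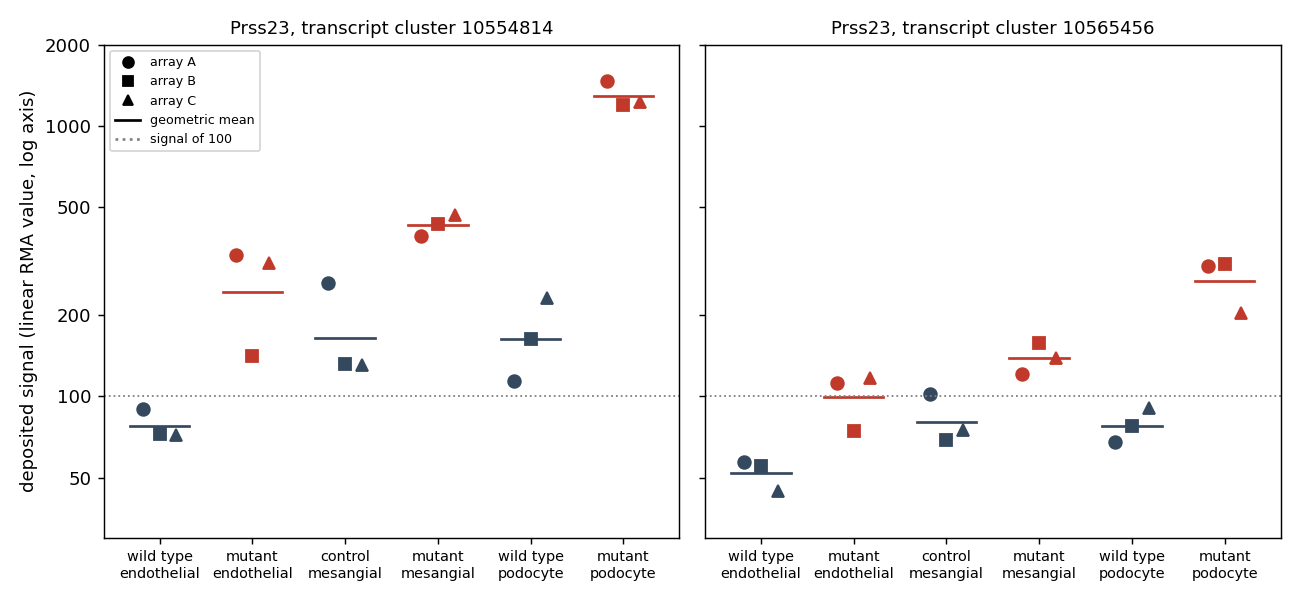
Signals of both Prss23 transcript clusters in each of the 18 arrays, on a log axis, by group, with mutants in red, controls in dark blue, horizontal bars at the geometric mean of 3 arrays and a dotted line at a signal of 100. The 3 mutant podocyte arrays sit between 1192 and 1472 in cluster 10554814, and in each cell type all mutant arrays lie above all control arrays in both clusters.

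Markers of other cell types in the podocyte arrays are given beside this result. The endothelial marker sum was 4224 to 5625 in wild type and 656 to 2484 in mutant podocyte arrays, with all 7 markers at 100 or more in each wild type array and 3 to 7 of them in mutant arrays. The mesangial marker sum was 2291 to 3098 in wild type and 755 to 2024 in mutant podocyte arrays, with 6 of 6 markers at 100 or more in each wild type array and 3 to 5 in mutant ones. The sum of 5 juxtaglomerular and smooth muscle markers went the other way, 753 to 784 in wild type and 1037 to 2290 in mutant podocyte arrays, with 4 of 5 at 100 or more in each array. Mutant podocyte array C had the lowest sums of all 3 lists among the mutant podocyte arrays, and its Prss23 signal in cluster 10554814 was 1231. Mutant podocyte array A, with the highest sums, read 1472, and array B, with sums between those of A and C, read 1192. Parietal epithelial and tubule markers summed to 566 to 796 in wild type and 772 to 991 in mutant podocyte arrays, which overlapped. The part of these markers in the Prss23 values was not tested.

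The next question was whether the protease was also elevated in mesangial and endothelial cells. It was chosen for its podocyte values, but with earlier results of these data known. These comparisons may therefore not be fully independent of the choice. In mesangial cells, Prss23 was higher in every mutant array than in every control array. Cluster 10554814 read 262, 131 and 130 in control mesangial arrays A to C and 391, 435 and 470 in mutant mesangial arrays A to C. Control array A stood well above the other control arrays, and the lowest mutant signal was 0.58 above it on the log2 scale. The means were 174 ± 75.5 in control and 432 ± 39.3 in mutant arrays (SD, n = 3 each). The log2 difference was 1.39 with a standard error of 0.27, a 2.61-fold increase with a 95% interval from 1.67 to 4.09. It ranked 37 by increase among 11457 clusters tested. It met the screen used here, an unadjusted p under 0.05 with a fold change over 1.5. Its unadjusted p was 0.0015 in limma, and 2.08% of the clusters met the screen in this direction. The Benjamini-Hochberg adjusted p was 0.0507, just outside the threshold of 0.05, which 1.25% of the clusters passed as higher. Cluster 10565456 read 102, 68.8 and 75.1 in control mesangial arrays and 121, 158 and 139 in mutant mesangial arrays. Its log2 difference was 0.78 with a standard error of 0.17, and the adjusted p in limma was 0.0689. With 2 control arrays under 100, and these raised to 100, it was at least 1.37-fold higher, which is under the fold of the screen. Against the low-Ddx3y control array alone its log2 difference was 0.44 (adjusted p = 0.469). Of all clusters tested in mesangial cells, 12.3% had every mutant signal above every control signal.

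Control mesangial array A was the only control mesangial array with a low Ddx3y signal, and all 3 mutant mesangial arrays had a low one. Compared with that 1 control array, the log2 difference of cluster 10554814 was 0.72, with an adjusted p of 0.208 in limma, where the lone control array is assumed to vary like the mutant ones. Without control array A the log2 difference was 1.72 and the adjusted p was 0.00926, and without any other 1 of the 6 arrays it was 0.0882 to 0.159. Among mesangial arrays a high Ddx3y signal occurred only in controls B and C, so sex and genotype cannot be fully told apart in these arrays. Without control array C, which stood apart in its markers, the log2 difference was 1.22. The sum of the mesangial markers was itself lower in every mutant than in every control mesangial array, with 6 of 6 markers at 100 or more in each array. Juxtaglomerular and smooth muscle markers summed to 1362 to 1726 in control and 1602 to 2516 in mutant mesangial arrays, which overlapped. Podocyte markers summed to 687 to 786 in mutant mesangial arrays and endothelial markers to 2097 to 2430. The part of these marker differences in the Prss23 result was not tested.

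In endothelial cells, Prss23 was lowest of all in the wild type and again higher in every mutant array. Cluster 10554814 read 89.8, 72.6 and 71.8 in wild type endothelial arrays A to C, all under 100. It read 333, 141 and 310 in mutant endothelial arrays A to C. Array B was well below the other mutant arrays, yet 1.57-fold above the highest wild type array. The means were 78.1 ± 10.2 and 261 ± 105 (SD, n = 3 each). The log2 difference was 1.65 with a standard error of 0.30, a 3.14-fold increase with a 95% interval from 1.93 to 5.13, and it ranked 23 by increase among 11330 clusters tested. Because all wild type signals were under the signal minimum, this fold rests on signals near the array medians. With those signals raised to 100, the mutant arrays were at least 2.44-fold higher. It also met the screen, at an unadjusted p of 0.000667 in limma, where 2.96% of the clusters did in this direction. The adjusted p was again 0.0507, outside the threshold that 1.21% of clusters passed as higher. Cluster 10565456 read 57.4, 55.2 and 44.7 in wild type and 112, 74.2 and 117 in mutant endothelial arrays. Its log2 difference was 0.93 with a standard error of 0.19 and an adjusted p of 0.0600, and its mutant geometric mean was under 100, so no lower bound is given. Of all clusters tested in endothelial cells, 17.7% had every mutant signal above every wild type signal.

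Mutant endothelial array B set much of the endothelial spread. Without it the log2 difference of cluster 10554814 was 2.05, with an adjusted p of 0.0023 in limma. Without any other 1 of the 6 arrays the adjusted p was 0.0605 to 0.195. Ddx3y was high in mutant arrays A and B and low in mutant array C and in all wild type arrays, so Prss23 was high in 1 array of each kind, 333 in A and 310 in C. Among low-Ddx3y arrays only, the log2 difference was 2.00 (adjusted p = 0.0390 in limma, with 1 mutant array assumed to vary like the wild type ones). With a Ddx3y term and all 6 arrays the same value had an adjusted p of 0.197. Podocyte marker sums were 1445 to 1594 in mutant and 1336 to 1440 in wild type endothelial arrays, and 6 mesangial markers summed to 415 to 457 and 465 to 488. Leukocyte marker sums were 639, 492 and 364 in mutant endothelial arrays A to C and 376 to 433 in wild type arrays. The part of these markers in the endothelial Prss23 values was not tested.

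**Figure D2:**
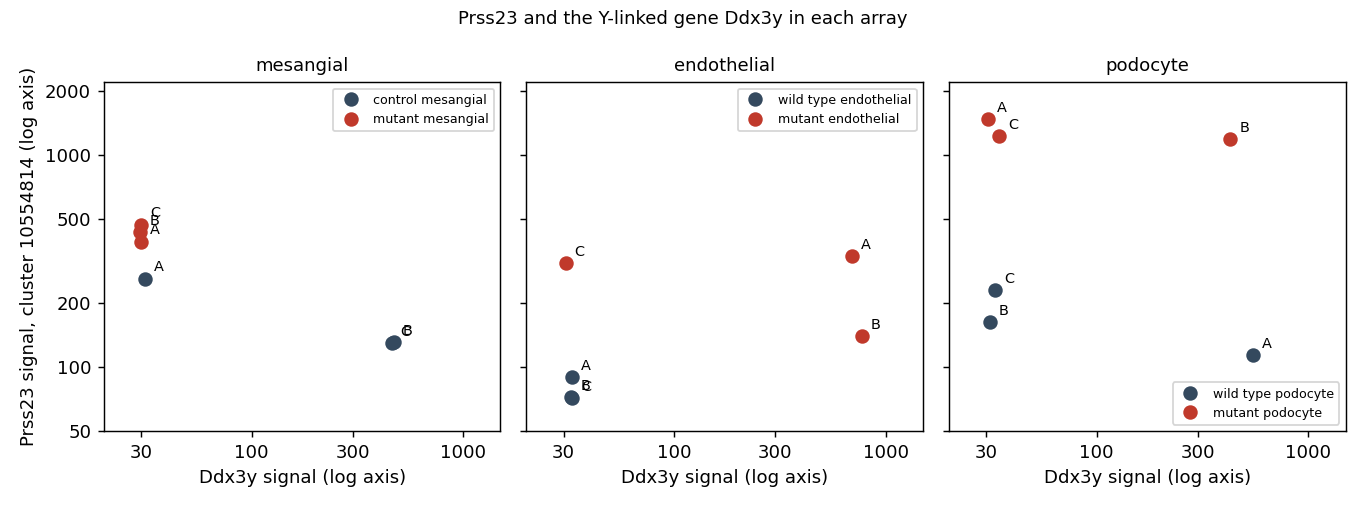
Prss23 signal of cluster 10554814 against the signal of the Y-linked gene Ddx3y in each array, both on log axes, with 1 panel per cell type, mutants in red and controls in dark blue, and letters naming the arrays. All 3 mutant mesangial arrays lie with control array A at low Ddx3y, whereas mutant endothelial and podocyte arrays occur at both low and high Ddx3y.

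The size of the difference was compared between endothelial and mesangial cells. The endothelial effect minus the mesangial effect was 0.27 on the log2 scale for cluster 10554814, with a 95% interval from -0.69 to 1.22 and an adjusted p of 0.798 in limma, in a test that 1.07% of 13523 clusters passed. The interval leaves room for an effect 2.33-fold larger in endothelial cells, so equal responses are not shown. This difference also holds the wild type endothelial signals under 100 and the +:- mark of the mesangial controls. Without control mesangial array A the value was -0.067. For cluster 10565456 it was 0.15. The podocyte effect was 1.60 larger than the mesangial one, with a standard error of 0.45, and 1.34 larger than the endothelial one, on the log2 scale. These last values contain the comparison for which the gene was chosen and are given as description. The one against endothelial cells also rests on the wild type endothelial signals under 100.

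**Figure D3:**
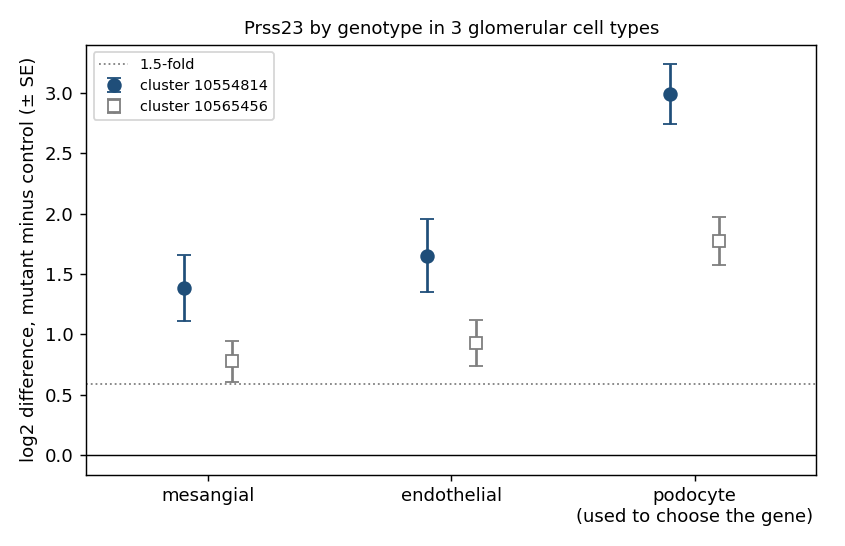
Log2 difference between mutant and control arrays for both Prss23 transcript clusters in each cell type, with bars for the standard error of the limma fit, a solid line at 0 and a dotted line at 1.5-fold. All 6 values lie above the dotted line, from 0.78 to 2.99, but with control signals under 100 raised to 100 cluster 10565456 falls below it in mesangial and endothelial cells.

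The transcript clusters followed each other closely. Their log2 signals followed each other with a Pearson r of 0.98 and a Spearman rho of 0.98 over 18 arrays, and with r of 0.80 after group means were subtracted. These are readings of the same RNA and not independent samples. Cluster 10565456 was the dimmer one, with all wild type endothelial and podocyte signals under 100, so the sizes of the differences are not set against each other.

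In order of mean signal in cluster 10554814, the groups stood at 1299 in mutant podocytes, 432 in mutant mesangial cells, 261 in mutant endothelial cells, 174 in control mesangial cells, 169 in wild type podocytes and 78.1 in wild type endothelial cells. Control mesangial and wild type podocyte arrays overlapped, at 130 to 262 and 114 to 230. Mutant endothelial arrays, at 141 to 333, overlapped with control mesangial ones. The other neighbours in this order did not overlap. Among controls, Prss23 was higher in mesangial than in endothelial cells by 1.09 on the log2 scale (SE 0.27, adjusted p = 0.0226 in limma). Cluster 10565456 reached 100 in 1 of these 6 arrays only, control mesangial array A, so its difference of 0.63 (adjusted p = 0.0308) rests on signals under the minimum. The mesangial controls are marked +:- and the endothelial ones +:+, so cell type and control genotype cannot be told apart here. With the endothelial signals raised to 100, the mesangial controls were at least 1.65-fold higher in cluster 10554814. In that comparison 15.5% of 11936 clusters were higher in mesangial cells. Leaving out wild type endothelial array B or C took the adjusted p of cluster 10565456 in limma to 0.0666 and 0.101. For cluster 10554814 it became 0.0745 and 0.0806. Among mutants the same difference was 0.82 with a standard error of 0.31 and did not pass (adjusted p = 0.0732), with 12.8% of clusters higher in mesangial cells. Mutant endothelial array B decided its size, since without it the value was 0.42 (adjusted p = 0.0389).

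Transcripts that were higher by the screen in both mesangial and endothelial cells were counted. The mesangial and endothelial comparisons share no arrays. Of 10294 clusters tested in both, 156 met the screen as higher in mesangial cells and 253 in endothelial cells, and 33 did in both, which is 21.2% of the former and 13.0% of the latter, beside 2.46% of the tested clusters that were higher in endothelial and 1.52% in mesangial cells. Both Prss23 clusters were among these 33. Those of the 33 that are reported here were ordered by the smaller of their mesangial and endothelial differences, and cluster 10554814 came after only 1. That was a cluster of Clca1, a secreted regulator of chloride channels chosen here after its values were seen, with log2 differences of 1.94 and 1.51.

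Other S1 and Htra proteases were read from a list of 91 genes, not counting Prss23, all of which had a cluster on the array. Most were under the signal minimum, and 15 distinct clusters were tested in mesangial, 11 in endothelial and 17 in podocyte arrays. Prss35 was under 100 in every group, with means from 32.1 to 37.2, and was not tested. By adjusted p, 1 member was higher in mesangial cells, against 1.25% of all clusters, and 1 in endothelial cells, against 1.21%. None was lower in either, against 1.68% and 0.0794% of all clusters. The mesangial one was Plau, the urokinase-type plasminogen activator. It read 331, 470 and 312 in control and 637, 629 and 699 in mutant mesangial arrays, and it rose by 0.84 on the log2 scale (adjusted p = 0.0497 in limma). The endothelial one was Cfb, complement factor B, the protease of the alternative pathway convertase. It read 157, 136 and 186 in wild type and 383, 379 and 384 in mutant endothelial arrays, and it rose by 1.27 (adjusted p = 0.00404).

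In podocytes, none of the 17 other protease clusters of the list met the screen as higher in mutants, where 1.26% of all clusters did, so a count of 0 is near the background. As lower, 3 met it, where 4.34% of all clusters did. Plat, the tissue-type plasminogen activator, read 2494, 2245 and 2814 in wild type and 1610, 1401 and 1557 in mutant podocytes, a log2 difference of -0.72. It read 2390 to 2707 in wild type endothelial arrays, and endothelial and mesangial marker sums were lower in mutant podocyte arrays, whose part in these protease values was not tested. Htra1, a secreted protease that cuts matrix proteins, read 1698, 1604 and 1852 against 1207, 902 and 972, a log2 difference of -0.75. Klk1, tissue kallikrein, is a tubule gene and was named after its values were seen. It read 129, 509 and 363 against 63.5, 52.4 and 70.4, a log2 difference of -2.22. With the mutant signals raised to 100 it was at least 2.88-fold lower, and its cluster is also assigned to Klk1b5 and Klk1b4. No protease of the list passed the adjusted threshold in podocytes (adjusted p = 0.135, 0.144 and 0.143 in limma for Plat, Htra1 and Klk1), where 0.0495% of all clusters were higher and 0.00826% lower. The median log2 difference of the tested proteases was -0.04, 0.04 and -0.15 in mesangial, endothelial and podocyte arrays, beside -0.02, 0.07 and -0.04 over all clusters tested.

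Serine protease inhibitors were read from 52 genes of a list, of which 14, 13 and 14 clusters were tested in mesangial, endothelial and podocyte arrays. Serpine2, protease nexin 1, read 119, 95.4 and 131 in wild type and 467, 177 and 251 in mutant endothelial arrays, a log2 difference of 1.27 (adjusted p = 0.111 in limma). Mutant endothelial array B was the lowest mutant array for Serpine2 and for both Prss23 clusters. Array A was the highest for Serpine2 and cluster 10554814, but array C was the highest for cluster 10565456. In podocytes Serpine2 read 741, 706 and 696 in wild type and 844, 608 and 195 in mutant arrays. Serpini1, neuroserpin, met the screen as lower in all 3 cell types, by -1.10, -0.68 and -1.57 in mesangial, endothelial and podocyte arrays (adjusted p = 0.0530, 0.215 and 0.164), where 3.12%, 0.865% and 4.34% of all clusters met it as lower. It was named after its values were seen.

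By adjusted p, 1 inhibitor rose and 1 fell in mesangial cells, where 1.25% and 1.68% of all clusters did. Pi15, a secreted trypsin inhibitor, rose by 0.98 on the log2 scale, from 138, 93.2 and 122 in control to 203, 278 and 216 in mutant arrays (adjusted p = 0.0445 in limma). Serpinb1a, an intracellular inhibitor of neutrophil proteases, fell by 1.97, from a mean of 330 ± 39.7 to 84.1 ± 6.6 (adjusted p = 0.00244). Its mutant signals were under 100, and raised to 100 they were at least 3.28-fold lower than the control ones. None of these inhibitors passed in endothelial cells or podocytes. In podocytes the screen counted 4 of the 14 as lower, against 4.34% of all clusters. Endothelial and mesangial marker sums were lower in the same mutant arrays, and their part was not tested. Serpini1 read 261 to 510 in wild type podocyte and 817 to 1032 in control mesangial arrays. Besides Serpini1, the lower ones were Tfpi, Pi16 and Reck, also named after their values were seen. Of the membrane-bound Kunitz inhibitors, Spint1 was under 100 in every array, and Spint2 was tested only in podocytes, where the log2 difference was 0.22 (adjusted p = 0.499). Median log2 differences of the tested inhibitors, over the members reported here, were -0.03, 0.27 and 0.04 in mesangial, endothelial and podocyte arrays, beside -0.02, 0.07 and -0.04 over all clusters.

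**Figure D4:**
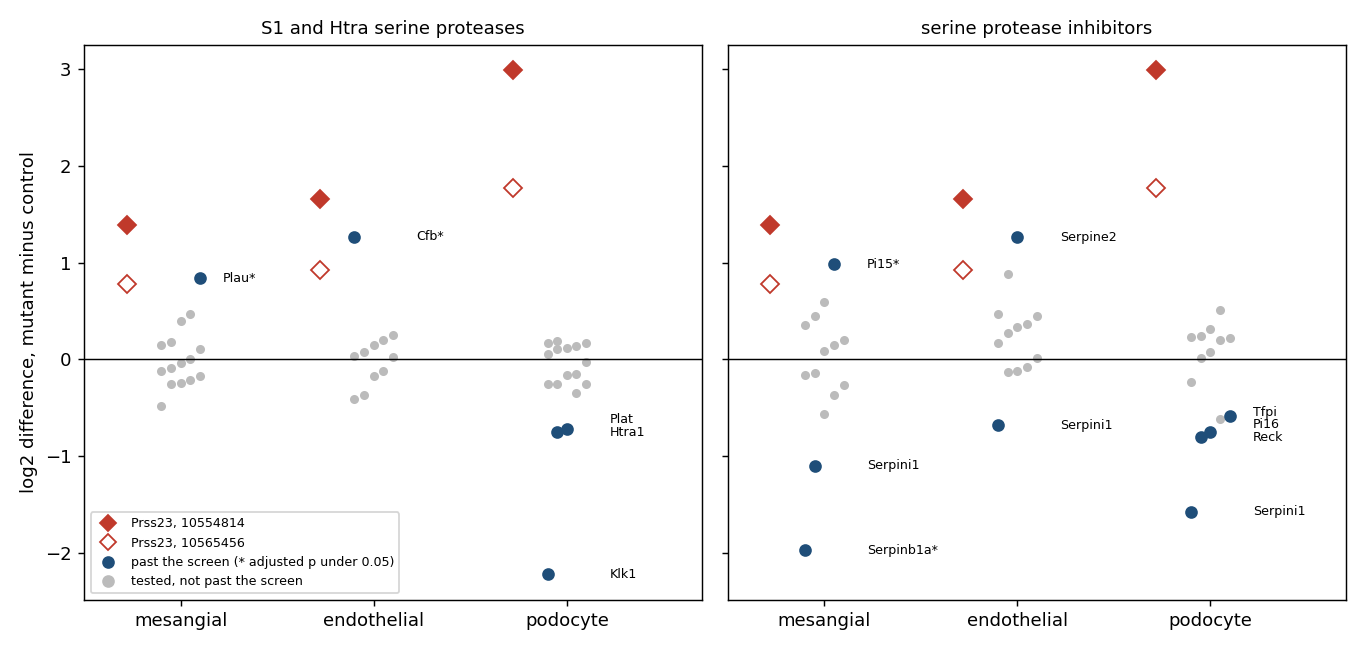
Log2 differences between mutant and control arrays of the tested proteases (left) and inhibitors (right) in each cell type, with Prss23 as red diamonds, filled for cluster 10554814 and open for 10565456. Blue points met the unadjusted p and fold change screen and carry the gene name, with an asterisk where the adjusted p was under 0.05. In mesangial and endothelial cells the filled Prss23 diamond lies above the plotted proteases and inhibitors, and its podocyte value chose the gene.

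Among the protease-activated receptors, F2r, the thrombin receptor PAR1, was the only one tested in all 3 cell types. It read 764, 901 and 871 in control and 1081, 1238 and 1382 in mutant mesangial arrays, a log2 difference of 0.54 (adjusted p = 0.0680 in limma). In endothelial arrays it read 602, 497 and 509 in wild type and 799, 743 and 779 in mutants, also a difference of 0.54 (adjusted p = 0.0529). In podocytes the difference was 0.36 (adjusted p = 0.357). No F2r comparison passed. Every mutant array was above every control array in mesangial and endothelial cells, as held for 12.3% and 17.7% of all clusters tested there. F2rl1 and F2rl2, which encode PAR2 and PAR3, were tested only in podocytes, with differences of 0.37 and 0.22 (adjusted p = 0.470 and 0.771), and F2rl3, which encodes PAR4, was not tested.

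Prss23 was also set beside genes of the endothelial to mesenchymal transition, the setting in which it has been linked to Snail. Snai1, which encodes Snail, read 103, 91.3 and 103 in wild type and 104, 92.0 and 106 in mutant endothelial arrays, a log2 difference of 0.02 (adjusted p = 0.920 in limma). In mesangial cells its difference was -0.07 (adjusted p = 0.844) and in podocytes 0.16 (adjusted p = 0.699). Snai2, Zeb1 and Zeb2, which encode repressors of epithelial and endothelial genes, differed by 0.14, -0.06 and -0.06 in endothelial cells and by 0.07, -0.35 and -0.19 in mesangial cells, and none passed. In podocytes Snai2 and Zeb2 met the screen as lower, by -1.12 and -0.67 (adjusted p = 0.144 and 0.263), while Zeb1 differed by -0.59 and did not meet it. Twist1, another such factor, was tested only in mesangial cells, with a difference of -0.20 (adjusted p = 0.657). Of the 20 genes of that list, none passed the adjusted threshold in endothelial cells, where 15 were tested. Of these, 2, Vim and Fn1, met the screen as higher, against 2.96% of all clusters. Fn1 read 125, 70.3 and 93.2 in wild type and 202, 123 and 213 in mutant endothelial arrays, which overlapped. In mesangial cells 19 were tested, and 6 met the screen as higher and 1 as lower, against 2.08% and 3.12% of all clusters. By adjusted p, 2 of these rose, namely Fn1 by 2.49 and Tgfb2 by 0.77, and 1 fell, namely the endothelial receptor gene Tek, by 1.19, against 1.25% and 1.68% of all clusters. Fn1 was under 100 in all control mesangial arrays, and with these raised to 100 it was at least 4.15-fold higher. Tek is also an endothelial marker, and control mesangial array C carried endothelial markers, whose part in this was not tested. In podocytes 17 were tested, none passed, and 3 met the screen as higher and 5 as lower, against 1.26% and 4.34% of all clusters. The higher ones were Fn1, Acta2 and Tgfb3, with log2 differences of 0.90, 1.26 and 0.78. Fn1 was under 100 in all wild type podocyte arrays. It read 143, 227 and 73.6 in mutant podocyte arrays A to C, and array C lay below wild type array A, at 74.5. Acta2 is one of the juxtaglomerular and smooth muscle markers, whose sum was higher in each mutant podocyte array. The lower ones were Snai2, Zeb2 and the endothelial markers Cdh5, Pecam1 and Tek, the last of them at -1.77, -1.60 and -2.09, in arrays whose endothelial and mesangial marker sums were lower in mutants. Snai2 and Zeb2 read 585 to 730 and 721 to 946 in mesangial arrays, and the part of these markers in the podocyte values was not tested. The median log2 difference of the list was -0.03, 0.13 and 0.07 in mesangial, endothelial and podocyte arrays. Genes of this list other than the Snail, Zeb and Twist factors were named after their values were seen.

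Of the genes next to Prss23 on chromosome 7, 1 was higher by the screen in endothelial cells and none in mesangial cells or podocytes, where 2.96%, 2.08% and 1.26% of all clusters were. Fzd4, a Wnt receptor gene that lies 97673 bp away, read 211, 265 and 215 in wild type and 430, 355 and 293 in mutant endothelial arrays, a log2 difference of 0.63 that met the screen (unadjusted p = 0.00407, adjusted p = 0.110 in limma). Its mutant endothelial arrays all lay above the wild type ones, as held for 17.7% of all clusters. In mesangial arrays it differed by 0.26 (adjusted p = 0.224) and in podocytes by -0.13 (adjusted p = 0.880). Me3, malic enzyme 3, lies 105097 bp away on the other side and differed by 0.00, -0.13 and 0.32 in mesangial, endothelial and podocyte arrays (adjusted p = 0.985, 0.471 and 0.368). Tmem135 and Ccdc81, the next genes out, had no group mean of 100 or more.

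The genes whose pattern was most like that of cluster 10554814 were found by Pearson's r of log2 signals over the 18 arrays, among 9910 genes with a single symbol that reached a signal of 100 in any array. Of the 10 highest, 9 are named here, which were Tmem8b (r = 0.84), Uap1l1, Ptrf, Irs2, Iqgap1, Zbtb44, Tnfrsf12a, Bhlhe41 and Fuca1 (r = 0.80). Across all candidates the median r was -0.08. Group means of Tmem8b were 77.7 to 104 and those of Irs2 71.8 to 123, so their r rests in part on signals under the minimum. Ptrf encodes cavin 1, a coat protein of caveolae, and its signal was 200 in wild type and 353 in mutant podocytes. Tnfrsf12a encodes the receptor of TWEAK, and Irs2 an adapter of the insulin receptor. Bhlhe41 encodes a repressor of the circadian clock. It read 39.4, 37.0 and 37.6 in wild type and 222, 134 and 174 in mutant podocytes, a log2 difference of 2.19. Its signals were under 100 in the controls of all 3 cell types, so the size of its change is not set against that of any other gene. The other 8 named differed by 0.32 to 0.82 in podocytes. The 5 lowest were Srpk1 (r = -0.91), Clock (r = -0.89), Ttc21b, Eml4 and Fut8 (r = -0.86). Clock, the circadian activator gene, read 716, 691 and 676 in wild type and 478, 461 and 401 in mutant podocytes, and it differed by -0.01 in endothelial cells, where Prss23 was higher in mutants by 1.65.

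**Figure D5:**
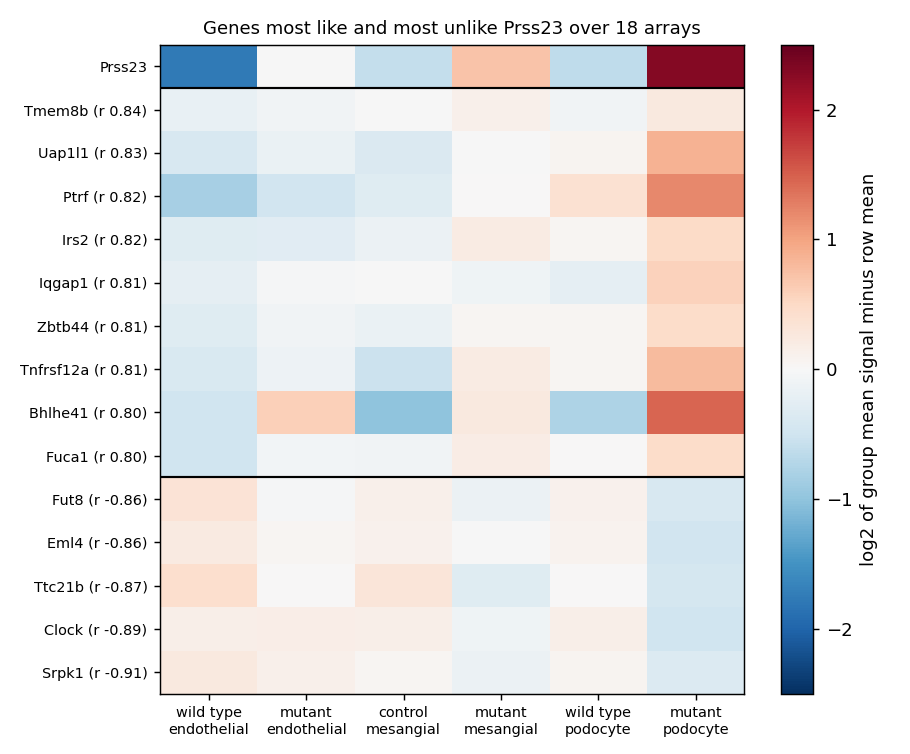
Log2 of the group mean signal minus its mean over the 6 groups for Prss23 (cluster 10554814), 9 of the 10 genes of highest and the 5 of lowest Pearson r with it over 18 arrays, where red is above and blue below the row mean. Signals under 100 enter these means, and mutant podocytes are the darkest column for most of them.

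These r values are descriptions of 18 arrays that share 6 groups. When the 12 mesangial and endothelial arrays were used alone, none of the 10 highest genes was among the 10 highest. Ptrf, Tmem8b and Fuca1 still had r of 0.87, 0.85 and 0.84 there, at ranks 23, 34 and 38, whereas Iqgap1 had 0.48 and Bhlhe41 0.57. By rank correlation 4 of the 10 remained in the top 10, and 3 did after the mean of each cell type was subtracted.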

How the data were processed

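Gene expression was measured in 18 samples with Affymetrix Mouse Gene 1.0 ST arrays, per the file header, after a single round of Ribo-SPIA amplification. The authors deposited linear intensity values, which the sample records ascribe to RMA. Other sources disagree on the array type and software, and the header was followed. The 18 columns of a second, normalized form were not used. Columns were assigned to groups by the cell type and genotype in their names. Log2 signals were fitted in R 4.3.3 using limma 3.58.1 (lmFit, eBayes), mutant minus control. A cluster entered when it reached 100 in 1 or more arrays of the comparison, and Benjamini-Hochberg adjustment ran over all that entered. The interaction used all 18 arrays. The fit was tested on simulated data. A gene with several clusters was read from the one of highest mean signal, apart from Prss23. Named genes are Prss23, Cd2ap, the 10 most and 5 least correlated genes, list members with an adjusted p under 0.05, fixed members of the protease, inhibitor, receptor and transition lists, and the 2 nearest genes on each side. Any other gene is marked in the text as named after its values were seen. The gene, the lists and the rule were chosen with earlier results of these data known. Promoter sequences and positions came from RefSeq for GRCm38.p6. Alternatives were other signal minimums, all arrays fitted together, a trended and robust eBayes, subtraction of array medians, quantile normalization and leaving out each array. P-values measure only the spread between arrays within groups, 3 per group, with variances moderated by limma across all clusters tested. For the interaction this spread includes that of the podocyte arrays. 1 member of the inhibitor list and 1 of the 10 most correlated genes are not reported here, and counts and medians over the inhibitors leave that member out. The study's sequencing data were not used here.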

Additional observations from a re-analysis of the deposited data

Results flagged for a closer look

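Of 19 protease inhibitor clusters tested beside Prss23, 2 passed a test of the difference between their endothelial and mesangial genotype effects, where 1.07% of 13523 clusters did, and both had little endothelial signal. For Serpinb1a the endothelial effect minus the mesangial effect was 1.81 on the log2 scale (adjusted p = 3.87e-05 in limma), with a mesangial difference of -1.97 in 3 of 3 mutant arrays and group means of 56.6 in wild type and 50.7 in mutant endothelial cells. For Pi15 it was -1.09 (adjusted p = 0.0278), with a mesangial difference of 0.98 and endothelial means of 30.9 and 28.7. Both were under 100 in every endothelial array, so these values restate the mesangial changes and show no difference in response. The same test for Prss23 gave 0.27 (adjusted p = 0.798).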

How the results depend on the processing

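No paired analysis was possible because the titles number the samples 1 to 18 without shared numbers and the columns carry none. With 3 arrays a group, single arrays, the signal minimum, the form of the fit and the scaling each moved Prss23 across the adjusted threshold. The endothelial minus mesangial effect ran from -0.067 to 0.66 (cluster 10554814) and from -0.015 to 0.36 (cluster 10565456) with 1 array left out, and was negative only without control mesangial array A. Without a minimum the adjusted p of the mesangial and endothelial differences of cluster 10554814 was 0.101 and 0.136. Apart from the endothelial minus mesangial effect, all Prss23 differences kept their sign under every alternative run. For cluster 10554814 the mesangial difference passed with the minimum in all 3 arrays of a group (1.39, adjusted p = 0.0267), 1 fit of 18 arrays (1.39, 0.0203), the trended and robust fit (1.39, 0.0303) and quantile normalization (1.40, 0.0454). For cluster 10565456 it passed in the first 3 of these (0.78 each, 0.0404, 0.0458 and 0.0323). The endothelial difference of cluster 10554814 passed with that minimum (1.65, 0.0300), 1 fit of 18 arrays (1.65, 0.0192) and array medians subtracted (1.72, 0.0300). With low-Ddx3y arrays only it was 2.00 (0.0390), but that fit has 1 mutant array, assumed to vary like the wild type ones. That of cluster 10565456 passed in 1 fit of 18 arrays (0.93, 0.0363), with medians subtracted (1.00, 0.0354) and without mutant endothelial array B (1.14, 0.0125). Without any other 1 array its adjusted p in limma was 0.0686 to 0.223. The alternatives by Ddx3y were chosen after seeing the data, and with a Ddx3y term the mesangial value was 0.72 (0.192) and the endothelial 2.00 (0.197). The mesangial versus endothelial level in controls lost its call without a minimum (1.09, 0.0546, and 0.63, 0.0604) and, for cluster 10565456, in the trended fit (0.63, 0.0762). In mutants it passed after quantile normalization (0.90, 0.0462). With 1 array left out, the ranges for cluster 10554814 were 1.22 to 1.72 (mesangial), 1.43 to 2.05 (endothelial), 0.75 to 1.26 (controls), 0.42 to 1.04 (mutants) and 2.74 to 3.24 (podocyte). For cluster 10565456 they were 0.66 to 0.94, 0.81 to 1.14, 0.52 to 0.75, 0.27 to 0.60 and 1.67 to 1.97, and without control mesangial array A it reached 100 in none of the control arrays compared and has no value for controls. Cluster 10565456 was under the stricter minimum in endothelial cells and has no value there. Clusters called by adjusted p in mesangial cells went from 335 to 578 under the stricter minimum and 729 in the trended fit. In endothelial cells they went from 146 to 241, 83 without a minimum, 226 in the trended fit and 271 with medians subtracted. In podocytes they went from 7 to 0 by limma without a minimum (3095 at an unadjusted p under 0.05), 837 in 1 fit of 18 arrays and 4 with medians subtracted. With 1 array left out these counts were 50 to 304, 49 to 253 and 0 to 344, and the podocyte screen gave 575 to 1235. The mesangial screen then counted 1 to 2 proteases, the endothelial screen 1 to 3 inhibitors and the podocyte screen 3 to 5 inhibitors. Of the 10 genes most like Prss23, 4 were kept by rank correlation and 3 with cell type means subtracted.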
